A study of Mus musculus with 12 samples.

Results

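The alpha-defensin family was followed in 12 RNA sequencing libraries of intestinal epithelial cells sorted by the level of a Sox9-GFP reporter. Its members were all rows of the deposited table whose gene symbol starts with Defa and whose value was above 0 in at least 1 library. Of 39 such rows, 4 were at 0 throughout, which left 35 members among the 30265 genes of the table, 22 of them genes and 13 pseudogenes by symbol. All cells came from C57Bl/6 mice carrying the Sox9-GFP reporter, and the 4 gates were Sox9 High, Low, Sublow and Negative, with replicates A, B and C in each. Each library was made from the total RNA of 12000 sorted cells after depletion of ribosomal RNA, with no treatment named in the labels. The reporter level defines the gates, so a gate is a fluorescence window and can hold several cell types. The labels do not say whether the replicates came from separate mice, so the p-values below measure the spread between these libraries, which may be technical.

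Alpha-defensins are short, cationic, disulfide-bonded peptides that kill bacteria, and in the mouse gut they are also called cryptdins. They are made by Paneth cells at the base of the small intestinal crypts, stored in large secretory granules as inactive precursors and cut to the active form by the protease matrilysin, the product of Mmp7. Their genes lie in a cluster of near-identical copies, and their transcription in Paneth cells is known to depend on Wnt signalling through TCF/LEF factors.

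In the GENCODE M21 annotation of GRCm38 all 35 members lay on chromosome 8 between 19422506 and 21735471. The 21 members expressed highly enough to be tested lay between 21025545 and 21735471. The untested members lay in the same interval, except for the pseudogenes Defa-ps14 and Defa-ps15. The build used for the deposited table is not given in the sources used here. RefSeq on GRCm38.p6 held an upstream window for 12 of the 35 members, 11 of them tested. Defa24 and Defa17, which together held 31.8% to 57.7% of the family sum in each library, had no window. What follows on upstream sequence therefore does not cover them. The 250 bases before the RefSeq start are shown for 5 members because the tested copies with a window fall into groups by this sequence. Capitals mark every match to the TCF/LEF core CTTTGAT, or ATCAAAG on the other strand.
Defa20: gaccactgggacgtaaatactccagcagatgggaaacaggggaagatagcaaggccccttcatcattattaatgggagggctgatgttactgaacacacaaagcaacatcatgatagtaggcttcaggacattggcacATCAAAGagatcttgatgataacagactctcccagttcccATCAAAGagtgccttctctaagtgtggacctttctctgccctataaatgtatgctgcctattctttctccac
Defa21: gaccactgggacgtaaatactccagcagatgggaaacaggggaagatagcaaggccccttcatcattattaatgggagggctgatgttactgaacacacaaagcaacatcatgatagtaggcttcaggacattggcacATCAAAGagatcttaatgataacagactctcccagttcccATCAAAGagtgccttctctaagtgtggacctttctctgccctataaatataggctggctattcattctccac
Defa31: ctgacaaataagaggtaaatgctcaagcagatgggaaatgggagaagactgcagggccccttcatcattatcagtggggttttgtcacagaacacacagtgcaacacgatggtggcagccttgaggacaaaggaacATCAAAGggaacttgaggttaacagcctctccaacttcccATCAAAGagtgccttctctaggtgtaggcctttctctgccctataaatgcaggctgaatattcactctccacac
Defa30: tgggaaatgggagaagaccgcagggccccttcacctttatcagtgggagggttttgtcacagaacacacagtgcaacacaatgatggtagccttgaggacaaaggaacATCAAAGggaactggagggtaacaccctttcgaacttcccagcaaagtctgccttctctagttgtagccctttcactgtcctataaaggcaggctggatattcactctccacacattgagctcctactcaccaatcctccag
Defa36: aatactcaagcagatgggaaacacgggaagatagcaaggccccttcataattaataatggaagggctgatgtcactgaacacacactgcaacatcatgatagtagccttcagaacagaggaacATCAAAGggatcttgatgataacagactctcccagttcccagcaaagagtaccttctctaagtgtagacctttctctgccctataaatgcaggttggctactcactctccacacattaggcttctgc
The windows lie on the plus strand at chr8:21509008-21509257 for Defa20, chr8:21025295-21025544 for Defa21, chr8:21191323-21191572 for Defa31, chr8:21134400-21134649 for Defa30 and chr8:21427178-21427427 for Defa36. The windows of Defa2 and Defa20 were identical, as were those of Defa23 and Defa31, of Defa21 and Defa22, and of Defa36 and Defa37. Defa32 shared a run of at least 240 bases with Defa20. Counted from 1 at the 5′ end of the window, Defa21 differed from Defa2 by G153A, G227A, T230G, C235G and T242A, none of them in a TCF/LEF match. The TCF/LEF core was present in 12 of 12 member windows and in 3.21% of all 32851 RefSeq windows of this length, and at least 2 matches were present in 8 of 12 members and in 0.0822% of all windows. The TATA motif TATAAA, searched on both strands, was present in 11 of 12 member windows and in 12.4% of all windows. The SOX core ACAAT, searched on both strands, was present in 1 of 12 and in 27.7% of all windows. Copies of 1 family share sequence by descent, so these counts are not independent, and a match is a description of the letters only.

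The libraries held 11.6 to 17.0 M reads, and values are normalised read counts, that is, reads divided by a library size factor. A count of 3 reads corresponded to 2.38 to 4.61 units. Sox9 itself followed the order of the gates, with means of 20262, 6601, 2084 and 604 units from High to Negative. High replicate B stood apart in this family: it held 345 alpha-defensin reads, against 4397 in High replicate A and 6741 in High replicate C, at a like depth. The main results that rest on High are therefore followed by their values without it.

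Alpha-defensin transcripts were most abundant in Negative, followed by Low and Sublow, and lowest in High. The summed family reached 40751, 95431 and 118301 units in Negative replicates A, B and C. In Low it was 17135, 27094 and 47999, in Sublow 17974, 11304 and 14890, and in High 3967, 318 and 5694. Every High library lay below every library of the other gates, and every Negative library lay above every Sublow library. Low overlapped both of its neighbours: Low replicate C exceeded Negative replicate A, and Sublow replicate A exceeded Low replicate A.

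**Figure D1:**
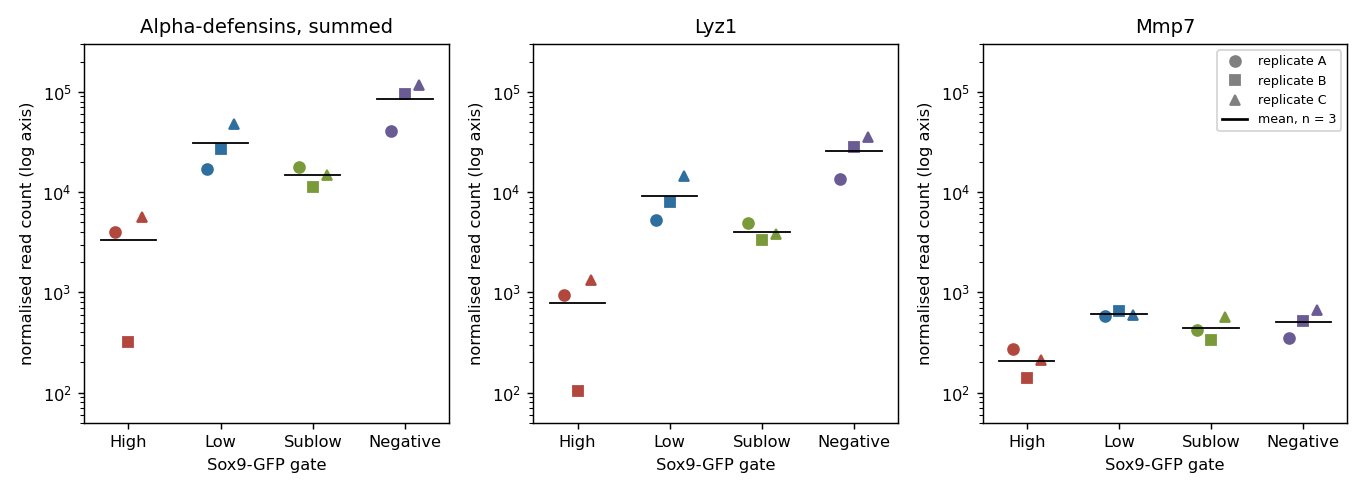
Normalised read counts (log axis) of the alpha-defensin family sum, of the Paneth cell gene Lyz1 and of Mmp7 in each library of the 4 Sox9-GFP gates; points are libraries and bars are means of 3. The family sum and Lyz1 run from High replicate B, at 318 and 103 units, to Negative replicate C, at 118301 and 35685, while Mmp7 stays between 141 and 670.

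Expressed as a share of the library, the family took 0.447% of the reads in Negative on average, 0.243% in Low, 0.0970% in Sublow and 0.0249% in High, or 0.0361% in High without replicate B. The group means ± SD of the sum (n = 3 each) were 84828 ± 39847, 30743 ± 15752, 14723 ± 3338 and 3326 ± 2745 units in the same order, and the High mean without replicate B was 4831 ± 1222 (n = 2). The log2 ratio of the means was -3.21 for High over Low and -2.67 without High replicate B. It was 1.46 for Negative over Low and -1.06 for Sublow over Low. When all libraries were scaled to the same total, the median of all genes for Negative minus Low moved from -0.05 to -0.61, and the log2 ratio of the family moved from 1.46 to 0.88. These are bulk libraries, so fewer cells of a type and less RNA per cell cannot be told apart.

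The 8 members with the highest means were Defa24, Defa17, Defa30, Defa31, Defa20, Defa2, Defa36 and Defa23, and together they held 81.2% to 94.2% of the family sum in every library. Per kilobase of annotated exon, the mean over the 12 libraries was 25942 units for Defa24 and 15684 for Defa17, against 9780 for Defa30, 9594 for Defa31 and 5023 for Defa20. Defa24 ranked 130 of 30265 genes by its mean normalised read count. It measured 996, 96.8 and 1120 units in High replicates A, B and C. The values were 5286, 8596 and 11254 in Low, 5068, 3653 and 5017 in Sublow, and 15258, 32608 and 41486 in Negative. For this gene the Negative libraries lay above all others and the High libraries below all others, while Low lay above Sublow without overlap. Defa17 measured 494, 72.8 and 692 units in High and 3256, 5183 and 8354 in Low. Its values were 3208, 1856 and 3134 in Sublow and 8272, 17699 and 22500 in Negative. It had the same order of gates, except that Low replicate C exceeded Negative replicate A.

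High was compared with Low first, the gates with the brightest and the next level of the reporter. Of the 21 members tested, 17 were lower in High by limma at an adjusted p below 0.05, and none was higher, against a background of 19.3% of all 16577 genes tested that were lower. The median log2 difference of the members was -3.77, and that of all genes was 0.10. Of these 17 calls, 14 held in every alternative processing, and without High replicate B the number called was 15, beside 16.4% of all genes, and the median was -2.37. Defa23 had the largest fall among those called, from 153, 501 and 740 units in Low to 47.8, 0 and 73.5 in High, a log2 difference of -4.65 ± 1.27 (SE) with a limma adjusted p of 0.0105. No High library reached the lowest Low library for Defa23. Defa34 fell by 4.48 ± 0.63 on the log2 scale (limma adjusted p = 0.00015), from 136, 253 and 534 units in Low to 21.7, 2.76 and 18.6 in High. Defa24 fell by 4.06 ± 0.74 (limma adjusted p = 0.00087). Without High replicate B the log2 differences of Defa23, Defa34 and Defa24 were -2.67, -3.66 and -2.92, each still called. Defa21, Defa35 and the pseudogenes Defa-ps6 and Defa-ps7 did not pass, with log2 differences of -2.79, -2.23, -2.64 and -0.39.

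Negative was compared with Low to set cells of the gate named negative for the reporter signal against those with a low level of it. Of the 21 members, 3 were called higher in Negative by limma and none lower, against 26.8% of all genes called higher, a share of members (14.3%) below the background. The median log2 difference was 1.10. Defa30 measured 5297, 13561 and 16878 units in Negative and 1180, 2404 and 3776 in Low, without overlap, a log2 difference of 2.27 ± 0.85 (limma adjusted p = 0.0363). Defa31 measured 5355, 12499 and 14592 units in Negative and 1020, 2393 and 5068 in Low, also without overlap, with a log2 difference of 2.10 ± 0.76 (limma adjusted p = 0.0322). Defa-ps7, a pseudogene, rose from 0, 0 and 3.17 units in Low to 12.7, 27.7 and 29.7 in Negative, where its fitted log2 difference of 3.83 depends on the pseudocount of 1. It passed the filter on low values through the Negative libraries alone, so a difference in that direction was built into its selection. The number called rested on single libraries. Defa30 and Defa31 each lost the call, with log2 differences of 1.82 to 2.34 and 1.51 to 2.13, when any 1 of 4 libraries was left out, and the number called was 1 without Low replicate A, Low replicate B, Negative replicate B or Negative replicate C. It was 7 without Negative replicate A. Of all 16577 genes, 4034, 4083, 3868 and 4158 were higher in Negative in the settings that called 1, in the same order. Without Negative replicate A, 4226 were. Without High replicate B, whose spread enters the shared error, the number of members called was 11 of 21 (52.4%), beside 26.4% of all genes. The position against the background therefore depends on that library.

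**Figure D2:**
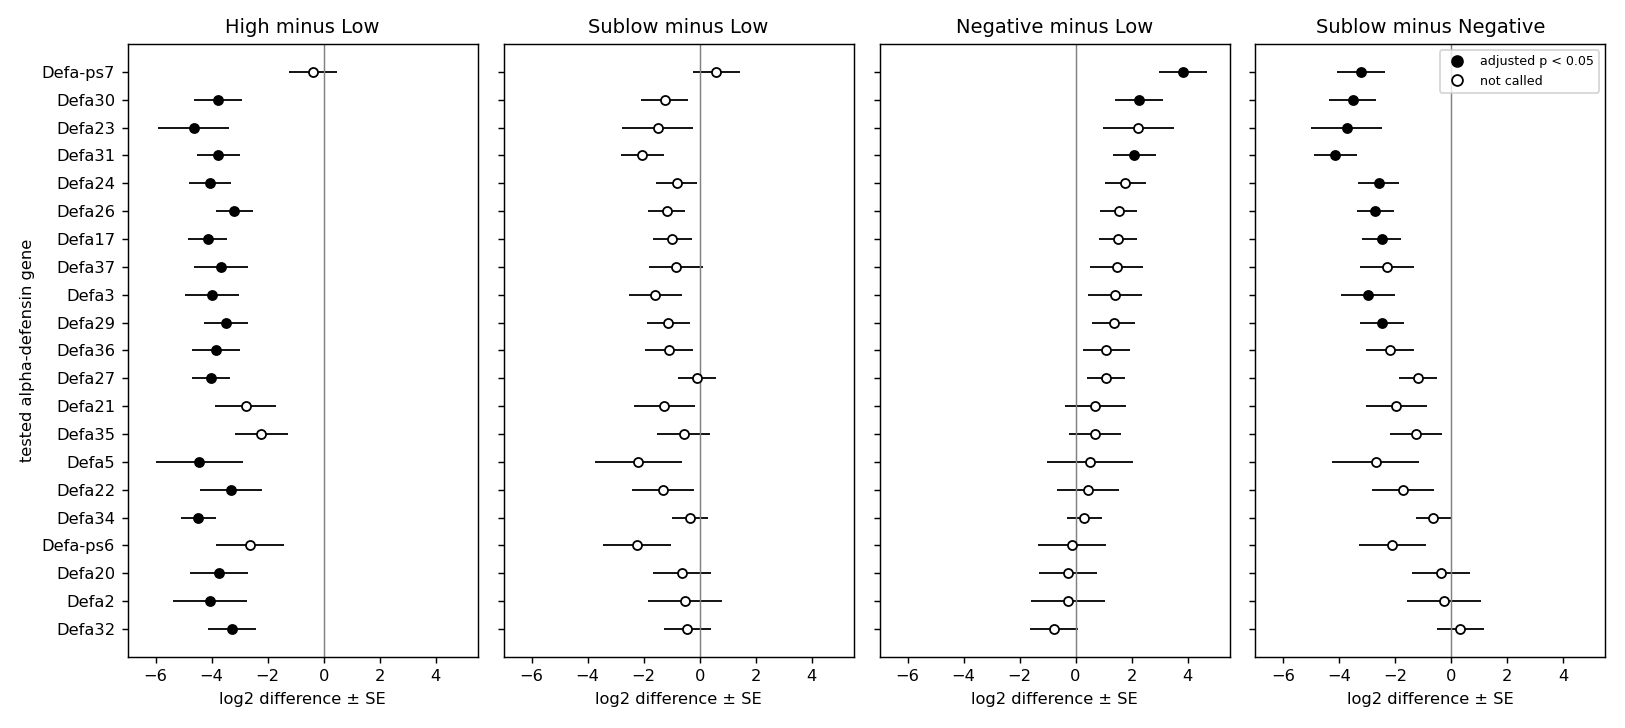
Log2 differences with their standard errors for the 21 tested members in 4 comparisons, sorted by Negative minus Low; filled points passed an adjusted p below 0.05 in limma and open points did not. All members lie below 0 for High minus Low, while for Negative minus Low they range from -0.76 (Defa32) to 3.83 (Defa-ps7).

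The members did not share 1 pattern between Low and Negative. Defa20 measured 1944, 2350 and 5356 units in Low and 973, 3617 and 4090 in Negative, so that the groups overlapped and the log2 difference was -0.26 ± 1.04 (limma adjusted p = 0.85). Defa2 measured 1667, 1674 and 3712 units in Low and 754, 2467 and 3140 in Negative, again with overlap, and its log2 difference was -0.28 ± 1.33. For Defa32 the log2 difference was -0.76 ± 0.85. A difference between these genes and Defa30 or Defa31 in their response was not tested.

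The same contrast appears in the make-up of the family, which does not depend on how libraries are scaled. Members were grouped where at least 50% of the 50-base windows of their GENCODE transcripts were shared. Defa20, Defa2, Defa32 and the untested Defa33 form such a group, and 96.0% of their windows occur in no gene outside it. Together they made up 4.52%, 6.66% and 6.41% of the family sum in Negative replicates A, B and C. In Low the share was 23.0%, 15.8% and 20.2%, in Sublow 29.4%, 27.1% and 20.7%, and in High 26.0%, 11.01% and 29.5%. Each Negative library lay below every other library. The sum of this group was 5261 ± 3025 units in Negative and 5979 ± 3235 in Low (SD, n = 3), 0.88-fold, while the whole family was 2.76-fold higher in Negative.

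Defa24, Defa30 and the pair Defa31 and Defa23 took larger shares in Negative. Defa30 held 13.0%, 14.2% and 14.3% of the family in Negative and between 5.87% and 8.87% in all other libraries. Defa24 held 34.2% to 37.4% in Negative and 19.7% to 33.7% elsewhere, a narrow gap: the 95% counting intervals of Sublow replicate C (33.0% to 34.4%) and Negative replicate B (33.8% to 34.5%) overlapped, as did that of High replicate B (25.8% to 35.5%). The pair Defa31 and Defa23, whose upstream windows are identical, held 14.8% to 15.5% in Negative, 6.84% to 12.1% in Low and 4.06% to 6.24% in Sublow. In High it ranged from 6.71% to 13.9%, so that the measured shares of Negative lay above every other library, although the counting interval of Defa31 in High replicate B, which held no Defa23 read, ran from 10.7% to 18.0%. Summed normalised counts were 3.55-fold higher in Negative than in Low for Defa24, 4.86-fold for Defa30 and 3.91-fold for Defa31 with Defa23.

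The pair Defa21 and Defa22, whose upstream windows differ from those of Defa2 and Defa20 by the 5 bases listed above, held 10.01%, 5.22% and 10.3% of the family in High and 1.86% to 3.32% in Negative. Its shares were 3.24% to 7.17% in Low and 3.33% to 4.61% in Sublow, and its sum was 1.41-fold higher in Negative than in Low. Defa36, Defa37 and Defa35 stayed between 4.17% and 6.07% in all 12 libraries. Defa17 and Defa3 held 16.8% to 21.3% in Low, Sublow and Negative, and 12.9%, 22.9% and 12.7% in High replicates A, B and C. The ratio of Defa17 to Defa24 was 0.542, 0.543 and 0.542 in the 3 Negative libraries and ranged from 0.496 to 0.752 over the others.

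**Figure D3:**
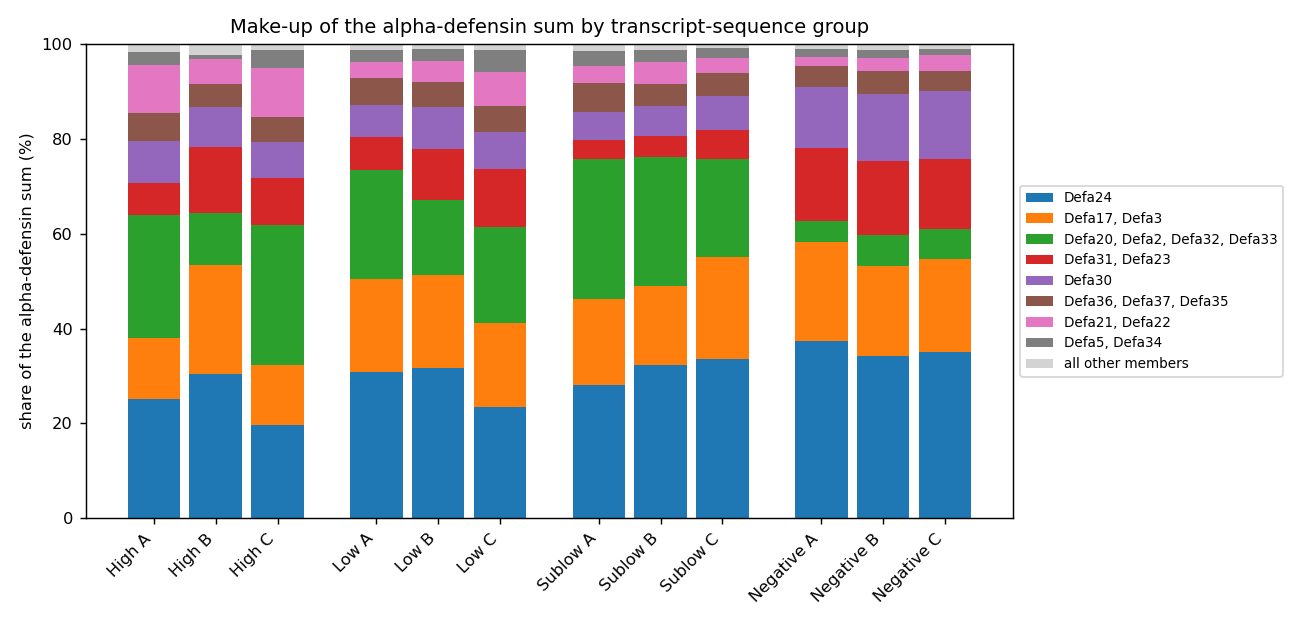
Share of the alpha-defensin sum (%) held by groups of members with shared transcript sequence in each of the 12 libraries; stacked bars add to 100%. The group of Defa20, Defa2, Defa32 and Defa33 holds 4.52% to 6.66% in the Negative libraries and 11.01% to 29.5% in the others.

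Counting error was widest in High replicate B, where Defa20 held 7.54% (5.19% to 10.8%) and Defa2 1.74% (0.799% to 3.74%), an interval that covers all 3 Negative shares of Defa2 (1.85% to 2.65%). The widest 95% Wilson interval of a member's share extended 4.83 percentage points to either side in High replicate B and 1.28 in the other 11 libraries, which covers counting error only. How reads that fit several copies were placed is not given in the sources used here, nor is the read length. At 50 bases, Defa31, Defa2, Defa20, Defa32 and Defa37 had no transcript window of their own, and the median over the 21 tested members was 16.0%. Values of single members are therefore uncertain within a group of copies, while shares of a whole group move only with reads that fit outside it. Of the windows of Defa24, 71.9% were unique to it, of Defa31 with Defa23, 72.1%, and of Defa30, 47.6%.

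Sublow was compared with Low, the neighbouring level of the reporter. No member was called by limma in either direction, against 24.0% of all genes, and 1 member had an unadjusted p below 0.05. Both edgeR and DESeq2 called 1 member on the recovered counts, and limma called 2 without High replicate B, 1 without High replicate C and 1 without Low replicate A. Of all 16577 genes, these settings called 4169, 4755, 3557, 3663 and 2521 in the same order. The median log2 difference of the members was -1.09. Defa31 had the smallest p, and measured 603, 408 and 711 units in Sublow against 1020, 2393 and 5068 in Low, a log2 difference of -2.05 ± 0.76 (limma adjusted p = 0.0715). Its libraries did not overlap, although it did not pass.

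Against Negative, 9 of 21 members were lower in Sublow by limma, beside a background of 12.7% of all genes, and none was higher. They were Defa31, Defa23, Defa30, Defa-ps7, Defa3, Defa26, Defa24, Defa17 and Defa29. Defa-ps7 passed the filter through Negative alone, and without it 8 of 20 were called. The median log2 difference of the 21 was -2.30. Defa31 had the largest difference, -4.15 ± 0.76 (limma adjusted p = 0.0046), and was the only member called in every alternative. Defa20 and Defa2 had differences of -0.38 ± 1.04 and -0.26 ± 1.33, and Defa32 of 0.32 ± 0.85, none of them called. The number called was 4 without Sublow replicate A, 3 without Sublow replicate C, 1 without Negative replicate B and 3 without Negative replicate C. Of all 16577 genes, those called lower in Sublow fell from 2097 to 939, 717, 325 and 1299 in the same settings. Without High replicate B the number of members called rose to 13 of 21, beside 1740 of all 16577 genes.

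High was also the lowest gate against the other pair. Against Negative, 20 of 21 members were lower in High by limma, beside 25.8% of all genes, with a median log2 difference of -4.86. Without High replicate B, 18 were called, beside 23.3% of all genes, with a median of -3.73. Defa-ps6 was the exception, and leaving out Defa-ps7, for the same reason as above, gave 19 of 20. Defa23 had the largest difference, -6.89 ± 1.27 (limma adjusted p = 0.00051), and -4.92 without High replicate B. Against Sublow, 12 of 21 were lower in High, beside 25.3% of all genes, with a median of -2.53. Here Defa34 had the largest difference among those called, from 241, 248 and 151 units in Sublow to 21.7, 2.76 and 18.6 in High, -4.14 ± 0.63 (limma adjusted p = 0.00015), and -3.31 without High replicate B. This count fell to 6 without High replicate B (28.6% of members, beside 21.9% of all genes, median -1.26) and to 5 without Sublow replicate A. In the latter setting 3900 of all 16577 genes were lower in High, a share close to that of 5 of 21 members. The 6 comparisons share their libraries and are not independent of each other.

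Alpha-defensin genes listed under other symbols also had their lowest means in High. RefSeq gives a Defa symbol to 6 further genes of the table: AY761184 (Defa39), Gm14851 (Defa38), Gm15292 (Defa40), Gm15293 (Defa41), Gm7849 (Defa42) and Gm7861 (Defa43). By limma all 6 were lower in High than in Low, beside 19.3% of all genes. None was called between Sublow and Low, beside 24.0% of all genes in either direction. In Negative 3 were higher than in Low, beside 26.8% of all genes. Without High replicate B, 5 were lower in High (the call of Gm15293 was lost), 3 lower in Sublow and 5 higher in Negative, each against Low. The shares of all genes in that setting were 16.4%, 9.40% and 26.4%. AY761184 measured 736, 1271 and 1579 units in Low and 2592, 5553 and 6134 in Negative, a log2 difference of 1.97 ± 0.62 (limma adjusted p = 0.017). Its libraries did not overlap. Gm14851 differed by 2.21 ± 0.74 and Gm7849 by 1.86 ± 0.67. Adding the 6 genes to the family sum gave a log2 ratio of 1.51 for Negative over Low, against 1.46 without them.

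The ratio of the family to 4 other Paneth cell products varied less over the libraries than the family sum did. The ratio of the family sum to Lyz1, which encodes the antibacterial enzyme lysozyme, stayed between 3.03 and 4.33, a range of 1.43-fold, while the family sum itself spanned 372-fold, or 29.8-fold without High replicate B. The ratio to Itln1, which encodes the lectin intelectin, stayed between 3.68 and 8.01. The ratio to Ang4, an antimicrobial ribonuclease, ran from 48.2 to 124, and that to Mptx2, a mucosal pentraxin, from 79.3 to 403, the latter a 5.09-fold range. By limma, Lyz1 was lower in High than in Low (-4.06 ± 0.75, adjusted p = 0.00099; -2.93 without High replicate B), and its difference between Negative and Low was 1.499 ± 0.75 (adjusted p = 0.11).

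For Mmp7, the protease that activates the peptides, the ratio varied more. Mmp7 measured 272, 141 and 213 units in the High libraries and 587, 658 and 590 in those of Low. Its values were 420, 333 and 562 units in Sublow against 347, 512 and 670 in Negative. High lay below all others, and Negative overlapped both Low and Sublow. The ratio of the family sum to Mmp7 ran from 2.25 in High replicate B to 186 in Negative replicate B, an 82.6-fold range, or 12.8-fold without High replicate B. By limma, Mmp7 was lower in High than in Low (-1.59 ± 0.28, adjusted p = 0.00068; -1.34 without High replicate B), and its difference between Negative and Low was -0.31 ± 0.28 (adjusted p = 0.36). A difference between Mmp7 and the defensins in their response was not tested.

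**Figure D4:**
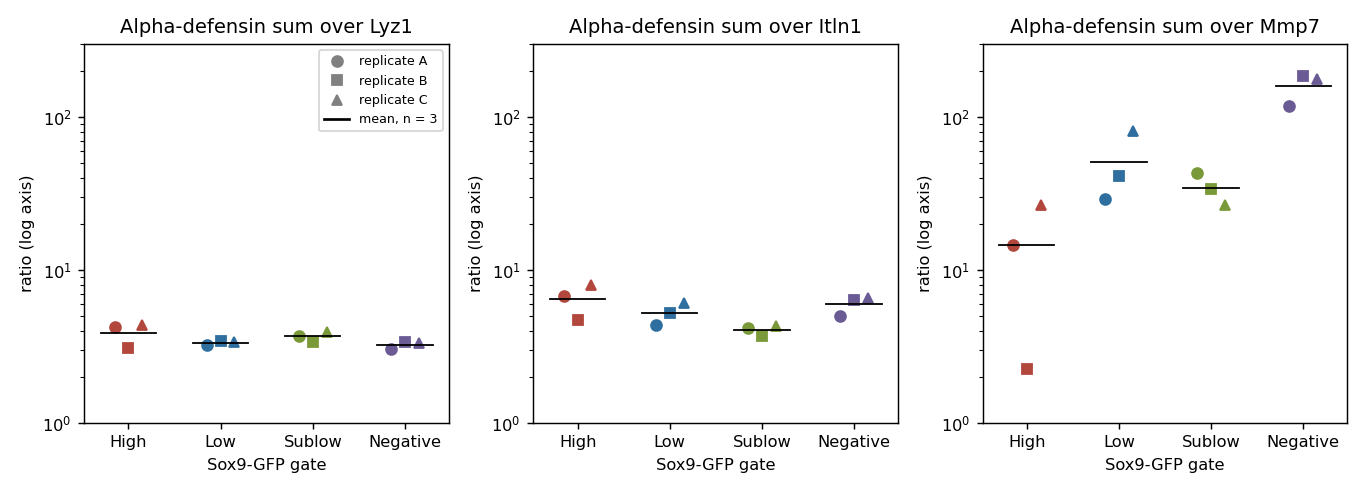
Ratio of the alpha-defensin sum to Lyz1, Itln1 and Mmp7 (log axis) in each library of the 4 gates; points are libraries and bars are means of 3. The ratio to Lyz1 stays between 3.03 and 4.33 and that to Itln1 between 3.68 and 8.01, whereas the ratio to Mmp7 runs from 2.25 to 186.

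The 10 genes outside the Defa rows whose log2 values were most like the log2 family sum, among 10912 with a mean of at least 100 units, included Lyz1 (Pearson r = 0.997), Itln1 (0.989), Ang4 (0.976) and Mptx2 (0.975). A further 4 were the alpha-defensin genes Gm7849 (0.980), AY761184 (0.980), Gm7861 (0.973) and Gm14851 (0.936). The remaining genes were Arhgef26 (0.918) and Npepps (0.917), and Mmp7 stood at 0.851. These are descriptions over 12 libraries that fall into 4 gates, which the correlations partly follow.

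The wider list of Paneth cell genes did not move as a block. Of 25 tested genes other than alpha-defensins, 15 were lower and 5 higher in High than in Low by limma, beside 19.3% and 23.6% of all genes. Between Negative and Low 5 were higher and 9 lower, beside 26.8% and 30.3% of all genes. Without High replicate B the counts were 15 lower and 4 higher for High, and 7 higher and 8 lower for Negative. The shares of all genes in that setting were 16.4% and 19.4% for High, and 26.4% and 29.6% for Negative, in the same order. The median log2 difference of the tested genes for High minus Low was -1.59, beside 0.10 for all genes, and -1.34 without High replicate B. The summed list (26 genes) was nevertheless higher in High, at 70313 to 82573 units, than in Low, at 37181 to 49931. It was 27313 to 35998 in Sublow and 47871 to 86758 in Negative. This sum follows the most abundant genes of the list and does not speak for each of them. The list includes Sox9, whose level follows the reporter that defines the gates. Reg3g, a secreted antibacterial lectin, was higher in Negative (2.72 ± 0.25) and lower in High (-2.50 ± 0.25). Wnt3, a niche signal for stem cells, went the other way, lower in Negative (-2.00 ± 0.27) and higher in High (1.89 ± 0.27), as did the Notch ligand Dll4 (-1.10 ± 0.21 and 0.73 ± 0.21), although the latter call was lost when either Low replicate C or High replicate B was left out.

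Genes for the processing, packaging, release and control of the peptides were mixed, and Mmp7, Spdef, Fzd5 and Sox9 among them also stand in the Paneth cell list. Sox9 follows the reporter that defines the gates, so its direction in both lists was set by the sort. Of 23 tested, 6 were higher and 6 lower in High than in Low, and 11 were higher and 6 lower in Negative than in Low. In High this was 26.1% each way, near the 23.6% and 19.3% of all genes, and in Negative 47.8% and 26.1%, beside 26.8% and 30.3%. The summed list (24 genes) was 40084 to 43555 units in High and 27977 to 28458 in Low. Its sums were 28154 to 31736 in Sublow and 31343 to 35476 in Negative. Slc30a2, a zinc transporter of secretory granules, was lower in High (-2.78 ± 0.36) and higher in Negative (1.85 ± 0.36) than in Low by limma. Kcnn4, a calcium-activated potassium channel of Paneth cells, was lower in both (-2.41 ± 0.38 and -2.60 ± 0.38). Tcf7l2, which encodes a TCF factor, was higher in Negative by 0.77 ± 0.17, and by 0.21 with no call when libraries were scaled to the same total. Its difference of 0.49 ± 0.17 in High lost the call without any 1 of High replicates A, B and C or Low replicates A and C. Spdef, a transcription factor of secretory cells, was lower in both gates (-2.33 ± 0.37 and -1.88 ± 0.37). Without High replicate B the differences in High were -2.43 for Reg3g, 1.88 for Wnt3, -2.89 for Slc30a2, -2.32 for Kcnn4 and -2.39 for Spdef, all still called.

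Markers of other cell types differed strongly between the gates that differed in alpha-defensins. The summed enterocyte list (7 genes) reached 428593 to 639494 units in Negative, 65885 to 350197 in Sublow, 16447 to 39397 in Low and 37962 to 48516 in High. The summed goblet cell list (10 genes) was 52780 to 112102 in Negative, 347232 to 606870 in Sublow, 146234 to 492178 in Low and 8550 to 12451 in High. The enteroendocrine list (7 genes) was highest in High, at 356716 to 566894 units, as was the tuft cell list (6 genes), at 90548 to 94398 against 8744 to 14687 in Low and at most 528 in the other gates. The crypt base stem cell list (6 genes) was highest in Low, at 60694 to 80144. The lymphocyte and stroma lists also had their highest sums in High. The lymphocyte list (7 genes) summed to 2025 to 3452 units there and 117 to 205 elsewhere. For the stroma list (6 genes) the sums were 3036 to 4732 in High and 205 to 1163 elsewhere. By limma, 1 of 3 tested lymphocyte genes was higher in High than in Low and none lower, beside 23.6% and 19.3% of all genes. None of 4 tested stroma genes was called either way, so these sums do not speak for each gene of a list. Markers of the segments of the small intestine (7 genes) summed to 63258 to 96046 units in Negative, 10584 to 52753 in Sublow, 4099 to 7556 in Low and 4175 to 5455 in High. Within that list, Fabp6, a bile acid binding protein of ileal enterocytes, overlapped between Sublow (1011 to 2710 units) and Negative (806 to 3171). Lct, the lactase gene, did not (2607 to 38374 and 46738 to 74132). Lct made up most of the sum in each Negative library and is also in the enterocyte list, so these lists are not separate. The neutrophil and myeloid list (10 genes) summed to 56.8 to 110 units in all libraries, and its markers S100a8 and S100a9 were at 0 in 11 of 12 libraries each. The part of these differences in the alpha-defensin results was not tested.

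The 14 members below the filter of at least 10 units in at least 3 libraries were assigned few reads. They held 325 reads in all 12 libraries together, 0.0882% of the family's reads, with 1 to 69 reads each and no value above 27.7 units. From High to Negative the gates held 15, 98, 51 and 161 of these reads. At 50 bases Defa33, Defa-ps8 and Defa-ps17 had no transcript window of their own. Since the placing of shared reads is not given, few reads do not show that such a copy is silent. Of the 21 members tested, 19 had at least 10 units in all 3 Low libraries.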

How the data were processed

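The 12 libraries came from ribosomal RNA-depleted total RNA made into libraries with the Clontech SMARTer Pico v2 kit, per the labels. The authors deposited 1 table of normalised values, taken as a signal per gene and library. In every library 100% of these values were whole multiples of 1 step (tolerance 0.01), so the deposited signal is a read count divided by a size factor, and recomputing median-of-ratios factors changed none of them. No source used here names the aligner, the counting program, the annotation or the genome build.

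Values were tested as log2(value + 1) with limma 3.58.1 (trend, 1 fit of all 12 libraries by gate, R 4.3.3), and fold changes on this scale understate those of low genes. Genes with at least 10 units in at least 3 libraries were kept (16577), p-values were adjusted by Benjamini-Hochberg over all of them, and a call is an adjusted p below 0.05. The count tests edgeR 4.0.16 and DESeq2 1.42.0 on recovered counts called 7 and 5 members in Negative against Low, where limma called 3. Of all 16577 genes they called 4353 and 4600 higher in Negative, where limma called 4446. Other alternatives were pseudocounts of 0.5 and 5, other filters and scalings, robust variance moderation, the 6 libraries of a comparison alone, replicate letter as a block, and leaving out each library. The limma script was run on simulated counts drawn around the mean of the Low libraries, with the same fixed spread for every gene. That run does not speak for members that vary as much between libraries as these.

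The text names the 8 members with the highest means, Defa23, Defa34, and in each comparison the called members with the largest rise and fall. Members of lists, and members that did not pass, were named after their values were seen. The members and lists were chosen with earlier results of these data known. The family sum was not tested. Upstream windows are from RefSeq (GRCm38.p6), motifs were searched on both strands, and protein sequences were not used here. Intervals are 95% Wilson intervals.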

Additional observations from a re-analysis of the deposited data

How the results depend on the processing

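The log2 ratio of the family sums kept its direction under each alternative run. Leaving out 1 library gave -3.84 to -2.67 for High over Low, -1.35 to -0.59 for Sublow over Low, 1.15 to 1.94 for Negative over Low, -5.31 to -4.13 for High over Negative, -2.86 to -2.21 for Sublow over Negative and -2.78 to -1.61 for High over Sublow. The numbers of members called, leaving out 1 library, were 14 to 19, 0 to 2, 1 to 11, 16 to 21, 1 to 13 and 5 to 17 in the same order. Of all 16577 genes, 2713 to 3588 were then lower in High than in Low, and 2500 to 5603 were called between Sublow and Low. Those higher in Negative than in Low numbered 3868 to 4692. Those lower in High than in Negative numbered 3854 to 4616. Those lower in Sublow than in Negative numbered 325 to 2997, and those lower in High than in Sublow 3635 to 4209. Sublow against Low called 1 member with libraries scaled to the same total, with edgeR and with DESeq2, and 2 with its 6 libraries alone, instead of 0. Negative against Low called 5 with a pseudocount of 5, 1 scaled to the same total, 9 with its 6 libraries alone, 7 with edgeR and 5 with DESeq2, instead of 3. Among all genes, 4519, 2435 (of 16639), 4526, 4353 and 4600 were then higher in Negative, against 4446. With their 6 libraries alone, Sublow against Negative called 3 members instead of 9, while the genes called lower in Sublow fell from 2097 to 5 of 16577, and High against Sublow called 7 instead of 12, while they went from 4201 to 3656. In the other comparisons of that setting, 4526 of all genes were called higher in Negative than in Low, against 4446, and between Sublow and Low 7.55% of all genes were higher and 7.37% lower, against 13.3% and 10.7%. The cause was not tested.

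Same-letter replicates correlated at 0.0521 to 0.341 in their deviations from the gate means (18 pairs), and 12 of 12 libraries correlated best with their own letter, a hint from the data and not from the design. With the letter as a replicate block, Sublow against Low called 1 member and Negative against Low 6, and no other count moved by over 1.5 times. With that block, 5002 of all 16577 genes were called between Sublow and Low, against 3979. Those higher in Negative than in Low numbered 4701, against 4446.

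Of 2874 alternative values of single members, 2644 kept direction and side of the threshold, 121 lost the call, 77 gained it and 32 changed sign, none of which was a call. For Negative minus Low scaled to the same total, the log2 difference became -0.25 for Defa34, -0.11 for Defa22, -0.043 for Defa5 and -0.095 for Gm15293. For Sublow minus Negative on that scaling it became 0.031 for Defa2 and 0.089 for Mmp7. Defa-ps6 in Negative minus Low became 0.0069 with a pseudocount of 5, 0.51 with edgeR and 0.55 with DESeq2. Leaving out 1 library changed the sign of further values that were not called, whose ranges follow. The log2 difference for Negative minus Low ranged from -0.63 to 0.41 for Defa20, -0.68 to 0.35 for Defa2, -0.17 to 0.82 for Defa34, -0.13 to 1.15 for Defa22, -0.90 to 1.04 for Defa-ps6, -0.16 to 1.30 for Defa35 and -0.075 to 1.11 for Gm15293. The log2 difference for Sublow minus Negative ranged from -0.88 to 0.14 for Defa2, -0.15 to 0.66 for Defa32 and -0.45 to 0.022 for Mmp7. The log2 difference for Sublow minus Low ranged from -0.82 to 0.16 for Defa34, -0.23 to 1.29 for Defa-ps7, -0.62 to 0.20 for Defa27 and -1.42 to 0.042 for Defa35. The log2 difference for High minus Low ranged from -0.74 to 0.29 for Defa-ps7. The log2 difference for High minus Sublow ranged from -2.37 to 0.025 for Defa21, -3.71 to 0.11 for Defa5 and -1.84 to 0.33 for Defa-ps6. Depth limits members under 10 units and shares in High replicate B.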
